A study of Mus musculus with 6 samples.

Results

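Matrix metalloproteinases are zinc enzymes that cut collagens and other proteins of the extracellular matrix, and they are made as inactive precursors. The tissue inhibitors of metalloproteinases (TIMPs), a small family of secreted proteins, bind their active site, and Reck, an inhibitor anchored in the cell membrane, restrains several of them at the cell surface. Fibroblasts and the tumours that come from connective tissue make many of these proteins, and the balance of enzymes and inhibitors is a classic subject of work on invasion. The genes described here are the inhibitors Timp1, Timp2, Timp3 and Reck and the enzymes Mmp2, Mmp3, Mmp9, Mmp11, Mmp13 and Mmp14, 10 genes of the 18193 that the arrays name by a single symbol. Every probe set annotated to exactly 1 of the 10 was taken, 22 of 45037 in all, whatever its values.

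The arrays compared sarcoma cells from C57BL6/J mice without any working Dicer (Dicer null, 3 samples) with sarcoma cells heterozygous for Dicer (3 samples), all grown to confluence. Mature microRNAs are released from their hairpin precursors by Dicer. The labels give neither the tissue of the tumours, the other alleles of the lines nor the deleted part of Dicer1, and they leave unsaid whether the replicates are independent lines, clones or cultures. The p-values therefore measure the spread between these arrays, which may be technical. The values are log2 intensities as the GCRMA method summarises them, where values under about 3 are close to background.

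Of the 22 probe sets 20 had a mean of at least 3 over the 6 arrays and were tested with limma over all 24385 such probe sets. Mmp13 and the dimmer probe set of Mmp9 fell below that mean. Of the 7 mesenchymal markers 6 had a mean above 3 (Thy1 was below), with Vim between 12.78 and 13.84 over its probe sets. By their brightest probe sets Vim and Col1a2 differed by -0.07 and 0.01 between null and heterozygous arrays, and the other tested markers had lower means in null arrays, Pdgfra by -1.63, S100a4 by -1.37, Pdgfrb by -1.03 and Col1a1 by -0.78 on the log2 scale. None of the 6 was called in limma by these probe sets (3 had an unadjusted p under 0.05, against 2743 of all 11425 tested genes), and the list median was -0.91. A dimmer probe set of Pdgfra was called lower (-2.57, SE 0.47, limma adjusted p = 0.0480). The other probe set of Col1a1 differed by -2.30 (SE 0.62, limma adjusted p = 0.0972, not called), and those of Col1a2 by 0.21 and -0.51. All 4 endothelial markers and 7 of 8 leukocyte markers, Ptprc and Itgam among them, had means under 3. The remaining leukocyte marker, Cd68, read 5.30, 4.43 and 5.84 in null and 7.13, 5.24 and 5.30 in heterozygous arrays. Its difference of -0.70 was not called (limma adjusted p = 0.535). Of the 5 epithelial markers 3 had a mean above 3. Krt19, the brightest, read 8.50, 8.15 and 6.49 in null and 8.92, 7.07 and 4.75 in heterozygous arrays, above background in every array, and Krt18 stood at 9.02 in heterozygous replicate 1 against values under 3 in the other 5 arrays. The summed linear level of the mesenchymal markers was 25780 to 33140 in null arrays against 33900 to 46380 in heterozygous arrays. Pdgfra, S100a4, Pdgfrb and Col1a1 had lower means in null arrays, as did the inhibitors described next. The part of these markers in those differences was not tested. The epithelial sum was 112.9 to 387 in null and 47.11 to 1032 in heterozygous arrays, so these ranges overlapped. Dicer1 itself stood at 8.46 ± 0.09 in null and 8.32 ± 0.24 in heterozygous arrays (SD, n = 3 each), a value that checks nothing while the deleted part is unknown.

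MicroRNAs that have been reported, in human cells, to act on members of this family are shown because Dicer makes all of them. They are miR-21, for TIMP3 and RECK, the pair miR-221 and miR-222, for TIMP3, and miR-29b, for MMP2. The mouse sequences are those of RefSeq, and capitals mark the seed, bases 2 to 8, which pairs with targets.
mmu-miR-21a-5p: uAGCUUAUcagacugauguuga
mmu-miR-221-3p: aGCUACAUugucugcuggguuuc
mmu-miR-222-3p: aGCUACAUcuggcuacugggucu
mmu-miR-29b-3p: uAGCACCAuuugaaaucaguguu
The miR-221 and miR-222 entries share 1 seed, and the others have seeds of their own. The arrays did not measure these microRNAs, and target sites in the messenger RNAs were not analysed here.

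Timp3 was lower in Dicer null cells in all 4 of its probe sets, and it was the only gene of the 10 with a call. Timp3 is the TIMP that stays bound to the matrix, and it also inhibits ADAM17 and several ADAMTS proteases. Its brightest probe set (1449335_at) read 10.22, 9.01 and 8.90 in null replicates 1, 2 and 3, against 11.48, 12.54 and 12.51 in heterozygous replicates 1, 2 and 3. The highest null array thus lay more than 1 log2 unit below the lowest heterozygous one. The probe set 1419089_at read 8.94, 8.14 and 8.32 in null arrays and 10.22, 11.77 and 12.07 in heterozygous arrays. In 1449334_at the values were 7.51, 6.44 and 6.65 in null arrays and 9.62, 11.15 and 11.46 in heterozygous arrays. The dimmest, 1419088_at, gave 6.80, 5.92 and 5.29 in null arrays and 8.47, 11.03 and 10.52 in heterozygous arrays. In each of the 4 the groups did not overlap, null replicate 1 was the highest of its group and heterozygous replicate 1 the lowest of its own.

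As log2 differences, null minus heterozygous, these came to -2.80 (SE 0.46), -2.89 (SE 0.52), -3.88 (SE 0.54) and -4.00 (SE 0.73), from the brightest to the dimmest. The corresponding falls were 6.96-fold, 7.40-fold, 14.7-fold and 16.0-fold, and the limma p adjusted by the Benjamini-Hochberg method was 0.0386, 0.0454, 0.0272 and 0.0471. The 4 probe sets read the same transcripts in the same 6 arrays and are not separate evidence. These arrays measure a whole culture, in which fewer cells that express Timp3 and less of its RNA per cell cannot be told apart. The calls lie near the threshold. None of the 4 was called without null replicate 2, null replicate 3 or heterozygous replicate 2 (adjusted p in limma between 0.089 and 0.157), 1 was called without null replicate 1 and 1 without heterozygous replicate 3, and without heterozygous replicate 1 all 4 were called, 1419088_at then at 27.3-fold.

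**Figure D1:**
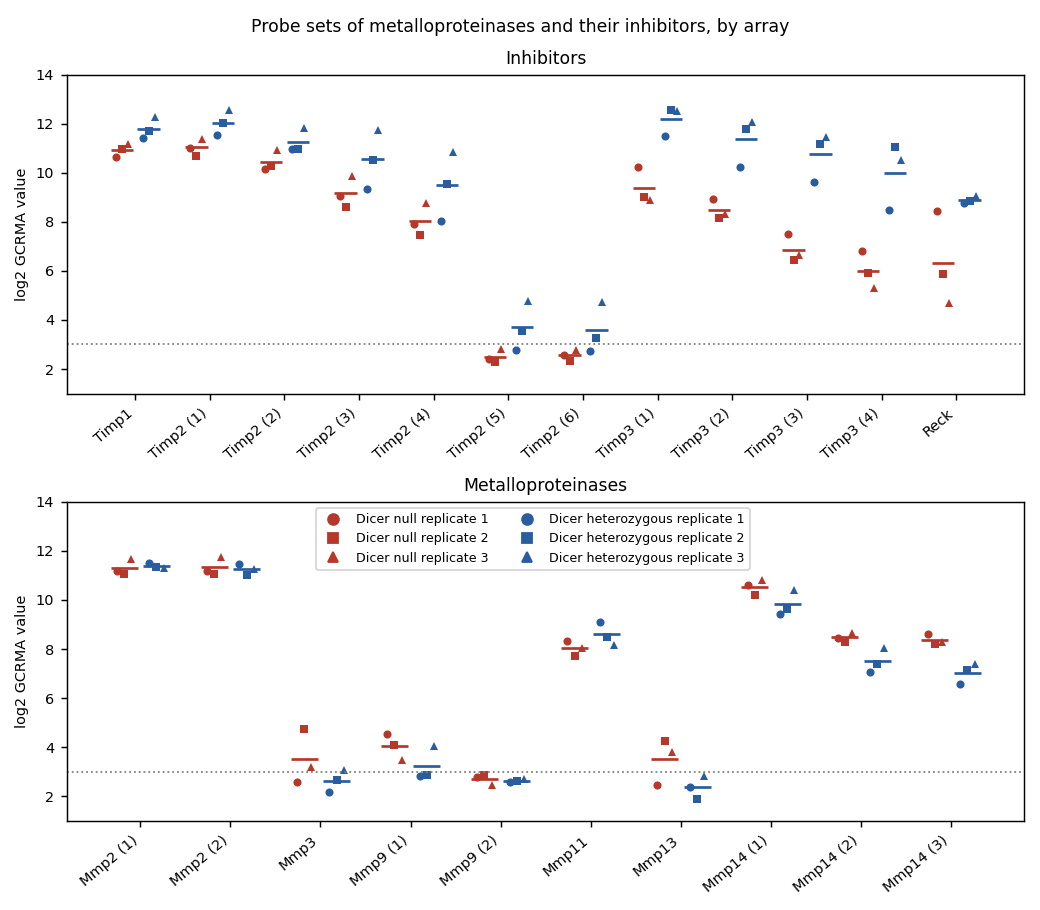
Log2 GCRMA value (vertical axis) of each of the 22 probe sets in each array, inhibitors above and metalloproteinases below. Red marks are Dicer null and blue marks Dicer heterozygous arrays, shapes are replicate numbers, horizontal bars are group means and the dotted line is the testing minimum of 3. Numbers in brackets count the probe sets of a gene from the brightest in heterozygous arrays. All red marks lie below the blue ones for Timp3 and for Reck, and the Reck marks of the null arrays spread from 4.68 to 8.42.

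Reck had a single probe set, which read 8.42, 5.86 and 4.68 in null replicates 1, 2 and 3, against 8.78, 8.83 and 9.06 in heterozygous arrays. The heterozygous arrays lay close together, whereas null replicate 1 was close to them and null replicates 2 and 3 lay far below. The mean was 6.32 ± 1.91 in null and 8.89 ± 0.15 in heterozygous arrays (SD, n = 3 each), a log2 difference of -2.57 (SE 0.90, 95% interval -4.74 to -0.40), which limma did not call (adjusted p = 0.161). Single arrays decide its size. Without null replicate 1 the difference corresponded to a 12.3-fold fall (adjusted p = 0.0392 in limma), and without null replicate 3 it corresponded to 3.36-fold (adjusted p = 0.336).

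Timp1 and Timp2 also had lower means in null cells, by smaller amounts, and none of their probe sets passed the test. Timp1 is a secreted inhibitor of most metalloproteinases. It read 10.64, 10.98 and 11.18 in null arrays against 11.43, 11.68 and 12.27 in heterozygous arrays, with no overlap, and differed by -0.86 (SE 0.27, limma adjusted p = 0.137). Timp2 inhibits metalloproteinases and, bound to Mmp14 at the cell surface, also takes part in activating the precursor of Mmp2. Its brightest probe set (1454677_at) read 11.01, 10.70 and 11.38 in null arrays and 11.53, 12.03 and 12.57 in heterozygous arrays, a difference of -1.01 (SE 0.32, limma adjusted p = 0.134). Heterozygous replicate 3 was the highest of all 6 arrays for Timp1 and in each of the 6 probe sets of Timp2.

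The 6 probe sets of Timp2 differed by -0.80 to -1.44, all in the same direction, with limma adjusted p between 0.134 and 0.294. In the 2 brightest the groups did not overlap, and in the other 4 they did. Much of the size came from 1 array in some of them. The largest difference, of 1450040_at, corresponded to 2.71-fold over all arrays, 1.68-fold without heterozygous replicate 3 and 4.47-fold without heterozygous replicate 1, and 1433662_s_at gave 2.58-fold, 1.70-fold and 3.91-fold in the same order. Its dimmest probe sets, 1420924_at and 1437081_at, had null means of 2.51 and 2.55, under the background level of 3, so their differences are not read as folds.

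Among the enzymes Mmp14 stood higher in null cells, just short of a call. Mmp14 is a membrane-bound collagenase that also activates Mmp2. Its probe set 1416572_at read 8.61, 8.22 and 8.29 in null arrays against 6.59, 7.14 and 7.39 in heterozygous arrays. Every null array lay above every heterozygous one, and the log2 difference of 1.33 (SE 0.25) had an adjusted p of 0.0517 in limma. The probe set 1440920_at read 8.47, 8.28 and 8.67 in null and 7.07, 7.38 and 8.05 in heterozygous arrays, again without overlap (0.97, SE 0.29, limma adjusted p = 0.116). In the brightest, 1448383_at, the values were 10.60, 10.22 and 10.80 in null and 9.41, 9.65 and 10.40 in heterozygous arrays, and the groups overlapped through heterozygous replicate 3 (0.72, SE 0.31, limma adjusted p = 0.229). Without that array 1416572_at and 1440920_at were both called (adjusted p = 0.0435 and 0.0447 in limma), and centring the arrays or a testing minimum of 4 also brought 1416572_at under the threshold (0.0433 and 0.0498). Apart from array weights, no other setting called 1416572_at. Its limma adjusted p was 0.0511 to 0.062 with no minimum, a mean-variance trend, robust moderation, renormalization or a floor of 3. It was 0.106 with a replicate block, 0.0697 to 0.16 without any other array and 0.146 by ordinary t statistics.

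Mmp2, the gelatinase that Mmp14 activates, was bright in both groups and showed no difference that these arrays could resolve. Its probe set 1416136_at read 11.20, 11.04 and 11.66 in null arrays and 11.51, 11.33 and 11.30 in heterozygous arrays. The difference was -0.08 with a 95% interval of -0.59 to 0.43, and the second probe set, 1439364_a_at, gave 0.08 with an interval of -0.51 to 0.67 (limma adjusted p = 0.853 and 0.869). The interval of Mmp2 thus excludes the size of the Timp3 difference. Mmp11, or stromelysin-3, which unlike most of the family leaves the cell already active, read 8.34, 7.70 and 8.05 in null and 9.12, 8.48 and 8.18 in heterozygous arrays. Its groups overlapped, and the difference of -0.56 (SE 0.30) was not called (limma adjusted p = 0.317).

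The remaining enzymes lay near background. Mmp3, or stromelysin-1, read 2.57, 4.74 and 3.21 in null and 2.18, 2.66 and 3.07 in heterozygous arrays (0.87, SE 0.57, limma adjusted p = 0.410). Mmp13, a secreted collagenase, read 2.45, 4.26 and 3.80 in null and 2.39, 1.90 and 2.81 in heterozygous arrays and was not tested. In both genes null replicate 2 was the highest array and the groups overlapped through null replicate 1, and the Mmp3 difference was 0.25 without null replicate 2. Mmp9, or gelatinase B, read 4.52, 4.11 and 3.49 in null and 2.84, 2.88 and 4.04 in heterozygous arrays in its brighter probe set (0.79, SE 0.42, limma adjusted p = 0.316), and between 2.46 and 2.86 in all 6 arrays in the other.

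**Figure D2:**
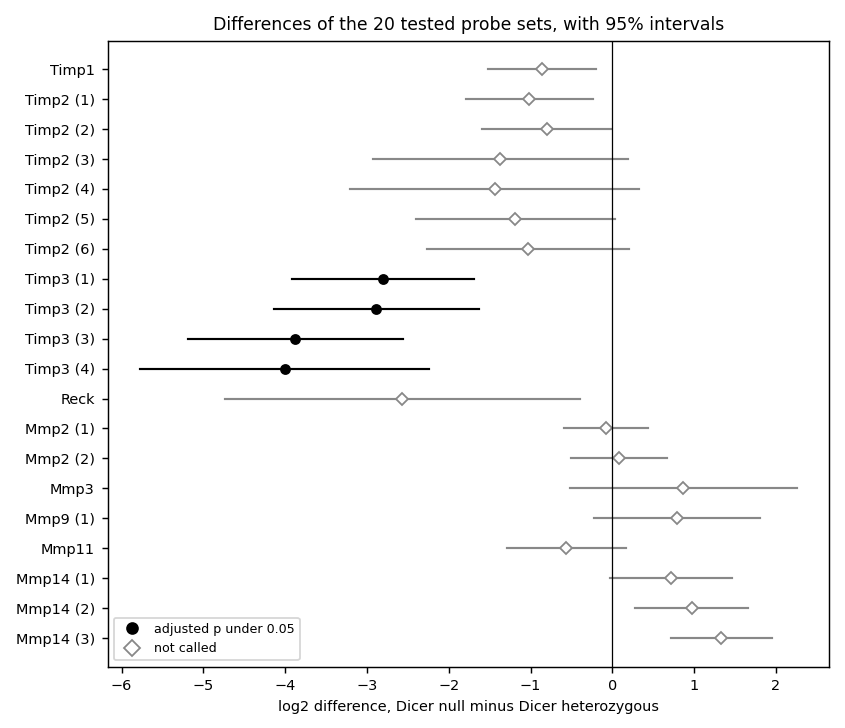
Log2 difference, Dicer null minus Dicer heterozygous (horizontal axis), of the 20 tested probe sets with 95% intervals from limma, numbered per gene as in the plot of values by array. Filled circles have an adjusted p under 0.05, and open diamonds do not. The 4 Timp3 intervals lie wholly below 0, and those of Mmp2 span it.

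Over the 20 tested probe sets, 4 were called lower and 0 higher in null arrays, where 1.48% of all tested probe sets were called lower, 1.62% higher and 3.1% in either direction. All 4 belong to Timp3, so the count stands for 1 gene. With 1 probe set a gene, the brightest tested, 1 of 9 tested genes was called, and that one lower, against 3.46% of all 11425 tested genes in either direction (2% lower and 1.45% higher). The groups did not overlap in 10 of the 20, 8 lower and 2 higher in null arrays, where 30.9% of all tested probe sets separated in this way (14.6% lower and 16.3% higher). The 8 were those of Timp3, 2 of Timp2, Timp1 and Reck, and the 2 were those of Mmp14. By 1 probe set a gene, 4 of the 9 tested members did not overlap, all 4 lower in null arrays. Over all 11425 tested genes 3675 did not overlap, 1971 of them lower. The median log2 difference was -0.94 over the 20 and 0.03 over all tested probe sets. All 12 probe sets of the inhibitors had negative differences, and of the 8 tested probe sets of the enzymes 6 had positive ones. Several of these probe sets read the same gene, so these counts and the median give Timp2, Timp3 and, among the enzymes, Mmp14 more weight. The Timp2 probe sets 1420924_at and 1437081_at and the Mmp3 probe set reached the testing minimum only through the group where they were higher. Their signs were thus tied to passing it. By 1 probe set a gene the median was -0.56 over the 9 tested members and -0.01 over all tested genes. Positive differences were then found in 3 of the 9, against 5562 of the 11425. The 3 were Mmp3, Mmp9 and Mmp14, while the enzymes Mmp2 and Mmp11 had negative differences. An unadjusted p under 0.05 was found in 10 of the 20, against 23.2% of all tested probe sets. By gene it was found in 4 of the 9, against 2743 of the 11425.

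**Figure D3:**
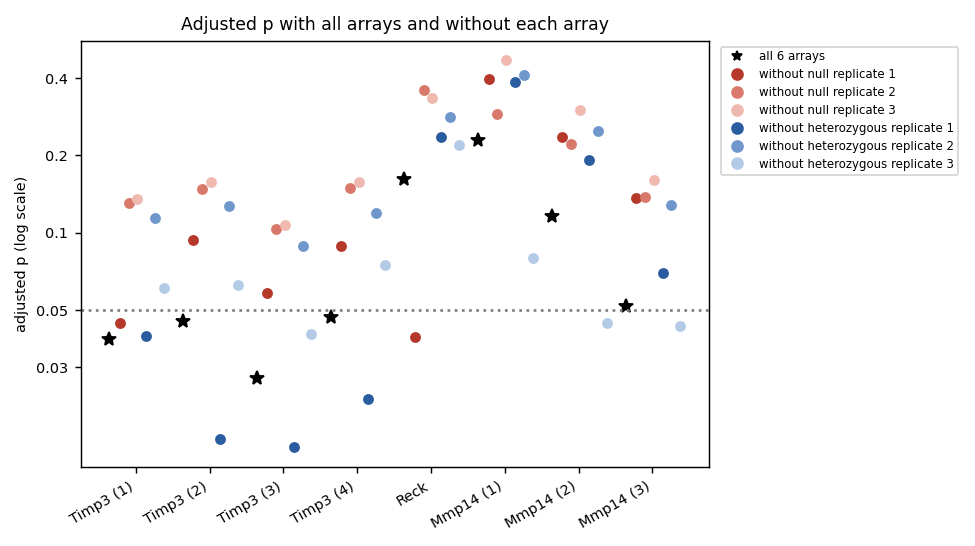
Adjusted p in limma (vertical axis, log scale) for the probe sets of Timp3, Reck and Mmp14 with all 6 arrays (stars) and without each array in turn (circles, red for null and blue for heterozygous). The dotted line is 0.05. Stars of Timp3 lie below the line and most of its circles above it, and Reck passes only without null replicate 1.

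The 4 genes whose profile over the 6 arrays was most like that of Timp3 were Ak1, Adamtsl1, Nsg1 and Ccn5. Likeness was the root mean square distance between the log2 values of 2 genes, each taken relative to its own mean. It was taken from the Timp3 probe set with the smallest p (1449334_at). The search covered the 11424 other tested genes apart from Riken and predicted genes, which were skipped. Ak1, an adenylate kinase, came closest at 0.245, with 4.39, 3.35 and 3.65 in null and 7.21, 8.38 and 8.69 in heterozygous arrays. Adamtsl1, a secreted relative of the ADAMTS proteases that has no protease domain, lay at 0.362, Nsg1 at 0.437 and Ccn5, a matricellular protein, at 0.454. All of them fell in null arrays, as the choice of pattern entails.

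Sequences before the start of some of these genes are shown because motif letters in them differ between members. Each is the stretch of 100 bases just upstream of the start in RefSeq's GRCm38.p6 table, 5′ to 3′ on the plus strand, and capitals mark matches on either strand to TGANTCA, the core of the AP-1 site, or to GGGCGG, the core of the Sp1 site.
Mmp3 at chr9:7445722-7445821: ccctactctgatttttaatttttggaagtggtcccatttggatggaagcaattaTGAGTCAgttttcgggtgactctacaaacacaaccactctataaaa
Mmp10 at chr9:7502242-7502341: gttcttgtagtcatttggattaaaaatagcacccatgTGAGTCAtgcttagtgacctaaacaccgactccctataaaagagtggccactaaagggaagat
Mmp13 at chr9:7272414-7272513: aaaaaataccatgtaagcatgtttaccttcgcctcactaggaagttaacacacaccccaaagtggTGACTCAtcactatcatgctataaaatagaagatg
Mmp14 at chr14:54431498-54431597: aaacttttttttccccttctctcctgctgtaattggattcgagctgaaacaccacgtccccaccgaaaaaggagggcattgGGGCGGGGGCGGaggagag
Timp3 at chr10:86300312-86300411: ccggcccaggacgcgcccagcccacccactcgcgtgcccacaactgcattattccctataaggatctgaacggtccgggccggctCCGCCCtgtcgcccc
Over the 250 bases before the start, TGANTCA was found in Mmp3 and Mmp13 and in none of the other 6 members with a sequence in the table, against 6.75% of 32851 promoters. GGGCGG was found in those 6, Timp1, Timp2, Timp3, Reck, Mmp11 and Mmp14, and in 32.7% of all promoters. Mmp2 and Mmp9 were not matched. The share of G and C over these bases was 37.6% for Mmp3 and 40.4% for Mmp13 and lay between 54.4% and 68.4% for the other 6. Mmp10 had TGANTCA and 37.2% G and C. The Sp1 letters stood before Timp3, which separated the groups, and also before Mmp11, which did not. They stood before Mmp14 too, which separated the groups in its dimmer probe sets but not in its brightest. A match describes these letters and shows no binding.

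Mmp10, or stromelysin-2, which is no member, lies near Mmp3 on chromosome 9 and is shown beside it because of its values, seen before it was chosen. It read 4.36, 8.39 and 6.25 in null and 2.79, 2.40 and 4.04 in heterozygous arrays. Its groups did not overlap and null replicate 2 was again the highest, but the difference of 3.26 (SE 1.02) was not called (limma adjusted p = 0.133). The 9.56-fold difference moved to 4.68-fold without null replicate 2 and to 18.9-fold without null replicate 1. Heterozygous replicates 1 and 2 lay below the background level of 3, so these folds are uncertain.

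In the other protease systems of the matrix, 3 of 66 tested genes were called, 1 higher and 2 lower in null arrays, a share of 4.55% against 3.46% of all tested genes. Among 6 other tested metalloproteinases, with a median difference of -0.66, the membrane-bound Mmp16 was the 1 called. It read 1.63, 2.90 and 1.97 in null and 4.17, 5.05 and 5.75 in heterozygous arrays. Against a log2 value of 3, since the null arrays lay below it, the fall was at least 3.97-fold (limma adjusted p = 0.0442). Mmp16 passed the testing minimum only through its heterozygous arrays (mean 4.99, against 2.17 in null arrays), so its call is tied to that group. With values below 3 set to 3 it was not called in limma (0.054), and its other 3 probe sets, all lower in null arrays, were not called or not tested. Without 1 array it stayed called only when heterozygous replicate 1 was left out (0.0383 in limma, against 0.0572 to 0.154 without any other).

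Of 6 tested genes of the plasminogen system, with a median difference of 0.21, Plau rose. Plau is urokinase, the protease that turns plasminogen into plasmin, which can in turn activate metalloproteinase precursors. It read 10.37, 11.97 and 10.08 in null and 6.59, 7.64 and 4.76 in heterozygous arrays, 22.3-fold higher in null (4.48, SE 0.83, limma adjusted p = 0.0484). Its other probe set, whose heterozygous mean lay below 3, rose at least 11.3-fold (limma adjusted p = 0.0442). The brighter set was not called without any 1 of the 6 arrays (adjusted p in limma from 0.0502 to 0.141), and its fold was 35.1 without heterozygous replicate 2 and 12.9 without heterozygous replicate 3.

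Of 10 tested cathepsins and cystatins, with a median of 0.21, Ctsh fell. Ctsh is a lysosomal cysteine protease. It read 6.04, 5.63 and 3.09 in null and 10.92, 10.18 and 9.43 in heterozygous arrays, a 38.2-fold fall (limma adjusted p = 0.0356), and 20.3-fold without null replicate 3. Without 1 array it stayed called only when heterozygous replicate 3 was left out (0.0438 in limma, against 0.0565 to 0.103 without any other). Its other probe set fell 53.3-fold (limma adjusted p = 0.0182).

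None of 19 tested ADAM, ADAMTS and astacin genes, 14 activators, partners and clearance receptors or 11 AP-1 and Ets regulators was called in limma by their brightest probe sets. An unadjusted p under 0.05 was found in 8, 4 and 1 of them, against 2743 of all 11425 tested genes. Their median differences were 0.00, 0.00 and -0.17, against -0.01 over all tested genes. The members of these lists with the smallest p were Adam12, a membrane-bound protease of mesenchymal cells (-2.86, SE 0.58, limma adjusted p = 0.0572), Pcsk6, a convertase of the furin type (-3.24, SE 0.64, limma adjusted p = 0.054), and the transcription factor Ets1 (1.27, SE 0.26, limma adjusted p = 0.057). Pcsk6 was called without heterozygous replicate 3, at 15.4-fold lower (0.0141 in limma), and its fold was 6.09 without heterozygous replicate 2. It read 3.34, 3.56 and 3.34 in null and 6.79, 7.92 and 5.25 in heterozygous arrays. The null values lay close to the background level of 3, so these folds are uncertain. The null mean of Adam12 was 2.37, under the background level of 3, so its difference is not read as a fold. A dimmer probe set of Ets1 was called higher (1.66, SE 0.24, limma adjusted p = 0.0308).

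**Figure D4:**
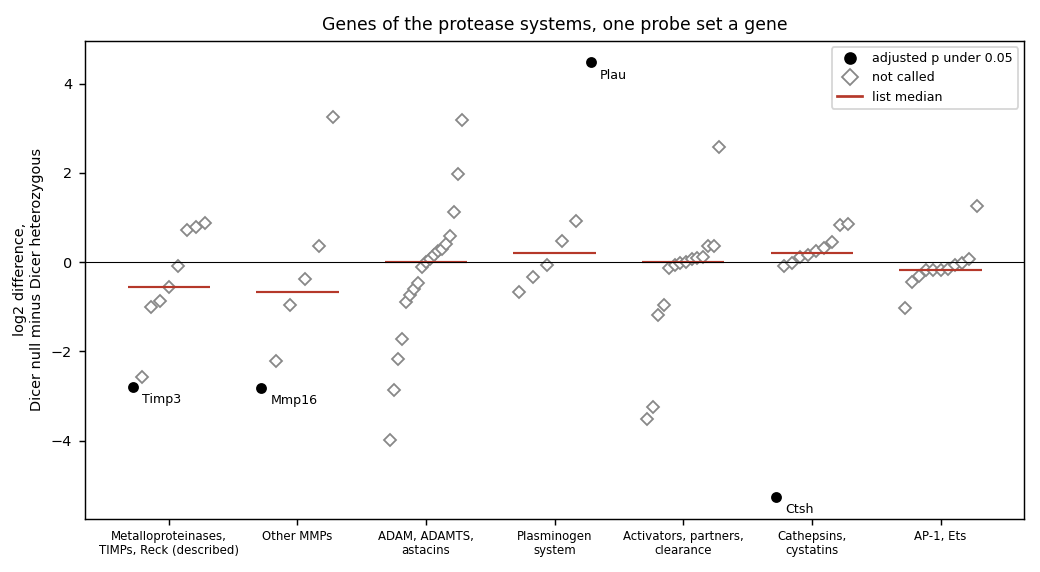
Log2 difference, Dicer null minus Dicer heterozygous (vertical axis), of each tested gene in the 7 lists, by its brightest tested probe set. Filled circles have an adjusted p under 0.05 in limma and are named, open diamonds do not, and red bars are list medians. Timp3, Mmp16 and Ctsh lie below 0 and Plau above it.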

How the data were processed

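Labelled cRNA of 6 samples was read on Affymetrix 3′ arrays. The deposited values are on a log2 scale, 1 for each probe set, between 0.40 and 14.18, read as log2 because the GCRMA method writes that scale. The authors used R 2.11.1 and GCRMA 2.20.0, per the submitters' processing notes. The method models background from probe sequence and makes the quantiles of all arrays equal, which removes an overall shift. Its settings and chip definition file were not given in the sources used here. Array medians lay between 3.32 and 3.43, no 2 arrays were identical, and correlations over all probe sets were 0.988 to 0.991 within null, 0.972 to 0.988 within heterozygous arrays and 0.963 to 0.981 between the groups. The number of arrays limits the precision.

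Genes were named through the platform annotation (34945 probe sets with 1 symbol, 932 with several, 9160 with none), updated by Entrez ID through RefSeq's GRCm38.p6 table. Groups came from the sample titles. Differences were tested with limma 3.58.1 in R 4.3.3 (lmFit, eBayes, two-sided, no block) and adjusted by Benjamini-Hochberg over all probe sets with a mean of at least 3, at 0.05. The fit was tested on simulated data. In lists a gene was represented by its brightest tested probe set. A fold written as "at least" uses 3 for a dimmer mean. The members and lists were chosen with earlier results of these data known. Named were all members, the called list genes or else the one with the smallest p, and the genes nearest to Timp3 (Riken and predicted genes skipped). Alternatives were other minimums, trend and robust moderation, renormalization, centring, a floor, unmoderated t statistics, weights per array, a block for the replicate number, other probe sets per gene and each array left out. Figures were drawn with matplotlib 3.10.9.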

Additional observations from a re-analysis of the deposited data

How the results depend on the processing

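All settings were planned, and the cause of a change was not tested unless stated. In limma 4 member probe sets, 3 genes of the other protease lists and 756 probe sets in all were called. With no minimum these were 1, 0 (24 at an unadjusted p under 0.05) and 620, over more probe sets, and with a mean-variance trend the lists had 7. Ordinary t statistics gave 0, 0 and 0 (8, 19 and 4873 at an unadjusted p under 0.05). Array weights, whose estimation in limma stopped before it converged, gave 13, 21 and 6875, with heterozygous replicate 2 weighted 14.5 and the others 0.241 to 1.26, and then called Timp1, Timp3, Mmp9, Mmp14 and 4 probe sets of Timp2. Leaving out 1 array, which also leaves fewer samples, gave 0 to 4 member probe sets (8 to 13 at an unadjusted p under 0.05), 0 to 3 list genes (17 to 24) and 45 to 857 probe sets. The other minimum, robust moderation, renormalization, centring, the floor and other probe set choices kept each count within 1.5 times. No difference of a member called in any of these fits changed sign. Same-numbered arrays deviated together with correlations of -0.06, 0.11 and 0.24, and the best match of 3 of the 6 arrays carried their own number. With so few arrays these values cannot show whether same-numbered arrays are paired, and the labels state no pairing. With the replicate number as a block limma called 0 member probe sets (14 at an unadjusted p under 0.05, and Timp3 adjusted p 0.0866 to 0.103), 2 list genes and 116 probe sets. Signal over background limits Mmp3, Mmp9 and Mmp13, whose values lie near 3.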
